A study of Sparus aurata with 9 samples.

Results

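White muscle of gilthead seabream (Sparus aurata) that had been induced to swim at 1 body length per second (1 BL/s) was set against the white muscle of both other groups of the study at once, the controls at minimal flow and the fish that swam at 2 BL/s. The members were the 3 fish at 1 BL/s of 9 fish in all, with 3 controls and 3 fish at 2 BL/s, taken by the group names in the sample titles. The contrast was the mean of the 1 BL/s group minus the mean of the other 2 group means, each weighted equally, so that a gene model that changed in steps with speed scored near 0 and a gene model that was high or low at the moderate speed alone scored away from 0. Juveniles of a commercial farm were divided over the tanks and kept for 8 months, with 1 tank for each speed, so that the speed and the tank cannot be told apart. The fish were fed commercial pellets under natural light, the flow was stopped in the swimming tanks for feeding, and the fish taken for RNAseq were of similar size and normal morphology. The strain and the exact age of the fish were not given in the sources used here.

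White muscle makes up most of the trunk of a seabream and consists of fast fibres that contract on glycolysis and phosphocreatine, with few mitochondria and little blood supply, and it powers sprints and fast turns. Sustained swimming at lower speed rests mainly on the thin layer of red, slow muscle under the skin, and white fibres are recruited as the speed goes up. Exercise in fish and mammals is known to act on mitochondria, capillaries, lipid uptake and growth regulators such as myostatin in muscle, and these were among the groups of genes that were looked up here.

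The deposited tables held raw fragment counts for 61849 gene models, of which 14465 had at least 1 count and 4241 passed the low-count filter and were tested. The libraries held 3660245 to 5267310 counted fragments, and the 10 most abundant gene models took 57.8 to 60.2% of each of them. The most abundant gene models were those of fast white muscle, namely glyceraldehyde-3-phosphate dehydrogenase, a model described as alpha cardiac, 2 M-type creatine kinases and the lactate dehydrogenase A chain. Parvalbumin, the calcium buffer of fast fibres, had 415860 counts in the fish at 1 BL/s, 428823 in the controls and 345017 in the fish at 2 BL/s, while the slow skeletal muscle troponins had 71, 27 and 529 counts in the same order, 519 of them in 1 fish at 2 BL/s. No model described as myoglobin had a count. The samples were dissected muscle, in which fewer cells of a type and less RNA per cell cannot be told apart.

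In the group at 1 BL/s, fish 3 differed from all 8 others. It scored 53.6 on the first principal component, which held 30.8% of the variance, against -15.0 to -0.40 for the others, and it had a count in 7780 gene models, against 8721 to 9718. The long transcripts (titin, ryanodine receptors and similar) were low in this fish relative to the short ones (ribosomal proteins, small respiratory chain subunits and similar): the median log2 deviation of 37 long minus that of 89 short gene models was -1.53 in fish 3, against -0.04 and 0.27 in fish 1 and 2 at 1 BL/s, 0.05, 0.64 and 0.16 in the controls and 0.26, 0.25 and 0.21 at 2 BL/s. The means of this index were -0.43 at 1 BL/s and 0.26 in the other 6 fish (exact permutation test, two-sided p = 0.167, where the smallest p that 3 fish against 6 allow is 0.0238). Fish 3 also had the highest level of hemoglobin of the 9 fish. It had a summed level of 1340 normalized counts of 32 digestive enzyme models of the pancreas, a list chosen after its values had been seen, against 89.6 and 166 in fish 1 and 2 at 1 BL/s, 38.6 to 119 in the controls and 21.9 to 194 at 2 BL/s. For this reason many of the values below are also given without fish 3.

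**Figure D1:**
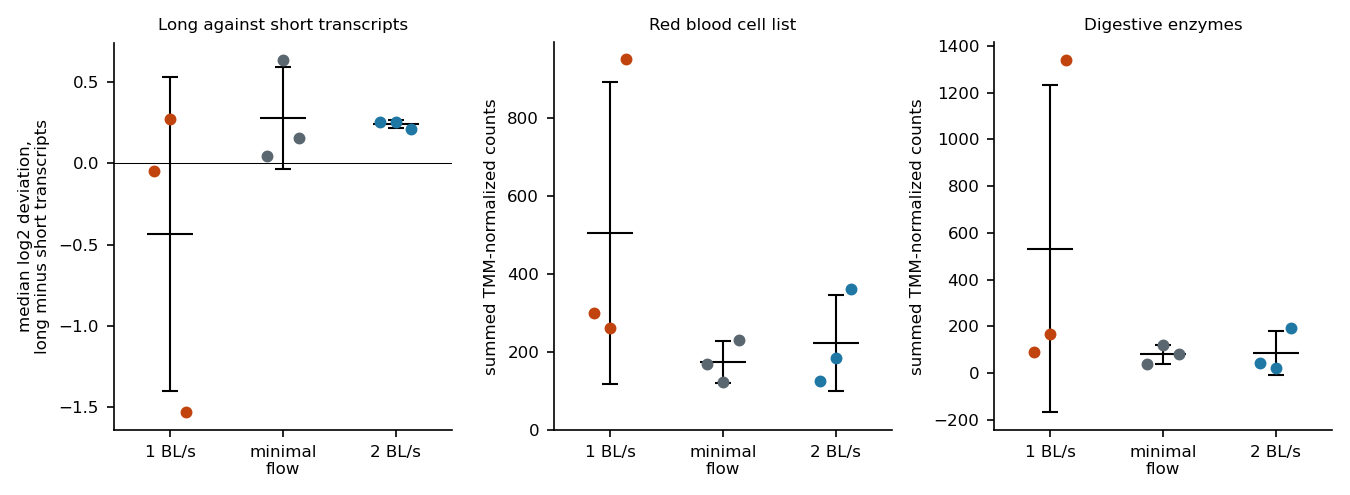
Values of each fish on 3 measures by group: the median log2 deviation of long minus short transcripts (left), the summed TMM-normalized counts of the red blood cell list (middle) and of digestive enzyme models (right). Points are fish, the long dash is the group mean and the bars are the SD (n = 3). Fish 3 at 1 BL/s lies at -1.53, 951 and 1340, away from the other 8 fish in all 3 panels.

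Of the 4241 gene models, 219 (5.16%) had an unadjusted p under 0.05 in the contrast of 1 BL/s against both other groups, of which 127 (2.99%) were higher and 92 (2.17%) lower at 1 BL/s. Gene models with p under 0.05 are referred to as called, since an unadjusted p under 0.05 was the threshold of the study. No gene model (0%) passed the Benjamini-Hochberg (BH) adjusted threshold with edgeR, the smallest adjusted p being 0.463 and that of every other called gene model named below 0.814, and with DESeq2 it was also 0, with 98 gene models higher and 103 lower at an unadjusted p under 0.05. It was 0 with limma-trend and voom too, with 263 and 221 gene models at an unadjusted p under 0.05, whereas edgeR without the low-count filter gave 51 adjusted calls. The share called was close to the threshold itself. Without fish 3 at 1 BL/s the calls were 66 higher and 71 lower, 69 of them among the 219, and without fish 1 at 1 BL/s 169 higher and 209 lower. The digestive enzyme models, chosen after their values had been seen, held 6 of the higher calls among 7 tested. Their median log2 fold change was 3.06. Without fish 3 at 1 BL/s it was 0.38 and 0 of them were called. Of the 219, 30 were called whichever of the 9 fish was left out, 16 of them higher and 14 lower. An unadjusted edgeR p under 0.05 against the controls and also against 2 BL/s was reached by 54 of the 219. The rest of the 219 passed against at most 1 of these 2 groups, so a call does not mean a difference from both.

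The 3 fish at 1 BL/s lay outside the range of the other 6 in 127 gene models (2.99%), above it in 75 (1.77%) and below it in 52 (1.23%). Among the 219 called, 48 lay above and 35 below. The 12 leading gene models in each direction named below were taken by p from these 48 and 35. Their lack of overlap was therefore a condition of the choice and not a result. The difference between the fish at 2 BL/s and the controls, which the contrast averages over, was not used in choosing the calls. It had a p under 0.05 in 146 of all gene models (3.44%) and in 11 of the 219 called (5.02%), and its median size on the log2 scale was 0.24 both in the called and in all gene models tested.

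**Figure D2:**
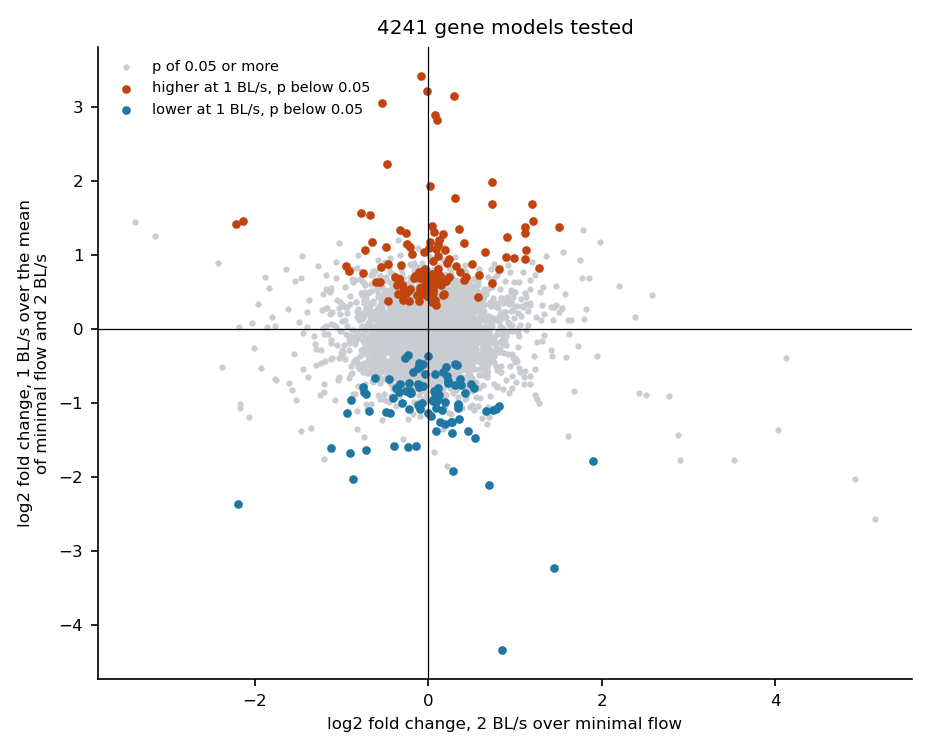
Log2 fold change of 1 BL/s over the mean of minimal flow and 2 BL/s (vertical) against that of 2 BL/s over minimal flow (horizontal) for the 4241 gene models tested. The 127 models called higher (red) and 92 called lower (blue) spread around 0 on the horizontal axis, and grey points had a p of 0.05 or more.

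Apolipoprotein C-I-like (Sa_32547.2.1), in mammals a small surface protein of lipoproteins that inhibits their clearance, had the smallest p of all gene models. It had 49.6, 48.8 and 60.7 normalized counts in the fish at 1 BL/s, 20.3, 23.1 and 26.6 in the controls and 17.0, 22.9 and 18.8 at 2 BL/s, where a normalized count is the count divided by the relative effective size of the library. All 3 fish at 1 BL/s lay above the other 6, 2.47-fold higher (log2 fold change 1.30 ± 0.23 SE, BH-adjusted p = 0.463 with edgeR), with log2 fold changes of 1.17 vs. the controls and 1.43 vs. 2 BL/s. These 2 differences share the fish at 1 BL/s, here and below, and are not independent. Heart-like fatty acid-binding protein (Sa_32694.2.1), which carries fatty acids inside muscle cells, had 91.4, 92.5 and 120 normalized counts at 1 BL/s, 61.0, 52.8 and 63.8 in the controls and 57.6, 48.8 and 77 at 2 BL/s. Its level at 1 BL/s was 1.68 times that of the others (log2 fold change 0.75 ± 0.21 SE), again with no overlap.

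Angiopoietin-related 4-like (Sa_26858.4.1), whose mammalian counterpart inhibits lipoprotein lipase and rises with fasting, was lower at 1 BL/s. It had 33.1, 37.6 and 36.2 normalized counts at 1 BL/s, 39.6, 85.8 and 101 in the controls and 88.7, 55.8 and 64.8 at 2 BL/s. The 3 fish at 1 BL/s were the lowest of the 9, by 0.491-fold (log2 fold change -1.03 ± 0.31 SE), although control fish 1 was close to them. Perilipin-3-like (Sa_8921.1.1), a coat protein of lipid droplets, had 24.4, 21.3 and 15.5 normalized counts at 1 BL/s, 36.6, 25.3 and 31.0 in the controls and 29.3, 40.9 and 38.5 at 2 BL/s (log2 fold change -0.70 ± 0.27 SE), a call that was lost without fish 2 (-0.73) or fish 3 (-0.55) at 1 BL/s. Of the 11 tested gene models of fatty acid uptake and oxidation, the heart-like fatty acid-binding protein was the only one called, and their median log2 fold change was 0.02 (-0.18 without fish 3 at 1 BL/s), vs. -0.01 over all gene models.

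The apolipoprotein belonged to the list of liver and plasma genes, and the levels of that list are given for that reason. Of its 55 gene models with a count 8 were tested, 1 of them called higher and 2 lower. Its summed level was 282 to 382 normalized counts at 1 BL/s, 185 to 427 in the controls and 201 to 282 at 2 BL/s. The 3 fibrinogen chains, defining genes of liver, had 68 raw counts at 1 BL/s, 8 in all controls and 4 in all fish at 2 BL/s. The 68 were 0, 44 and 24 in fish 1, 2 and 3 at 1 BL/s. Complement C5 and alpha-2-macroglobulin 1 of the same list were lower at 1 BL/s (log2 fold change -1.07 ± 0.38 SE and -1.14 ± 0.43 SE); the first call was lost without fish 1 (-0.79) or fish 3 (-0.86), with -1.78 and the call kept without fish 2, and the second without fish 3 (-0.85) at 1 BL/s. The part of blood plasma or liver RNA in these values was not tested.

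The other leading genes that were higher at 1 BL/s came from separate functions. Dmrt2 (Sa_54637.1.1), a transcription factor of somite and muscle development, had 19.1, 17.3 and 51.7 normalized counts at 1 BL/s, 2.03, 5.50 and 8.86 in the controls and 5.66, 13 and 9.39 at 2 BL/s. It was 3.96-fold higher (log2 fold change 1.99 ± 0.48 SE), with fish 3 the highest and fish 1 and 2 still above all others. Without fish 3 its log2 fold change was 1.32, and it was still called. Glutathione peroxidase 3 (Sa_35438.1.1), a secreted enzyme that reduces peroxides, had 19.1, 13.2 and 16.8 normalized counts at 1 BL/s, 4.07, 1.10 and 4.43 in the controls and 4.72, 7.97 and 10.3 at 2 BL/s. It was 3.21-fold higher (log2 fold change 1.68 ± 0.43 SE), by 2.28 on the log2 scale vs. the controls and 1.08 vs. 2 BL/s.

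The collagen alpha-6(VI) chain (Sa_14754.1.1), part of the microfibrils around muscle fibres, had 39.2, 44.7 and 34.9 normalized counts at 1 BL/s, 18.3, 19.8 and 11.5 in the controls and 10.4, 15.9 and 27.2 at 2 BL/s. It was 2.31-fold higher (log2 fold change 1.2 ± 0.32 SE), with about the same difference to the controls (1.27) and to 2 BL/s (1.14). JMJD6 (Sa_24613.4.2), a lysyl hydroxylase that acts on splicing factors, was 2.21-fold higher (log2 fold change 1.14 ± 0.30 SE), with 37.4, 59.0 and 93.0 normalized counts at 1 BL/s, 31.5, 26.4 and 34.5 in the controls and 32.1, 27.9 and 17.8 at 2 BL/s. Fish 1 at 1 BL/s exceeded control fish 3 only slightly.

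A rab5 GDP/GTP exchange factor-like model (Sa_9719.6.1), of endosome traffic, had 24.4, 20.3 and 38.8 normalized counts at 1 BL/s, 3.05, 6.60 and 11.5 in the controls and 3.78, 5.98 and 16.9 at 2 BL/s (log2 fold change 1.77 ± 0.48 SE). A prostaglandin F synthase-like model (Sa_31543.3.1) had 23.5, 17.3 and 24.5 normalized counts at 1 BL/s, 9.15, 2.20 and 12.4 in the controls and 7.55, 11 and 6.58 at 2 BL/s (log2 fold change 1.39 ± 0.42 SE). A gene model with no description (Sa_29127.3.1) had 13.9, 20.3 and 31.0 normalized counts at 1 BL/s, 13.2, 6.60 and 7.97 in the controls and 3.78, 4.98 and 8.46 at 2 BL/s (log2 fold change 1.54 ± 0.40 SE). These 9 gene models stayed past an unadjusted p of 0.05 in every alternative that gave them a value, including each of the 9 in which 1 fish was left out.

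The remaining 3 of the 12 leading higher genes depended on fish 3 or on the covariate for long and short transcripts. The E3 SUMO ligase NSE2 (Sa_33618.5.1), a subunit of the SMC5/6 complex of DNA repair, had 18.3 to 29.7 normalized counts at 1 BL/s, 8.13 to 15.1 in the controls and 6.98 to 13.2 at 2 BL/s (log2 fold change 1.09 ± 0.34 SE), and lost its call with the covariate. A prune homolog (log2 fold change 0.80 ± 0.25 SE) and the amyloid beta A4 precursor (0.84 ± 0.27 SE) lost theirs without fish 3, where they were at 0.36 and 0.61.

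**Figure D3:**
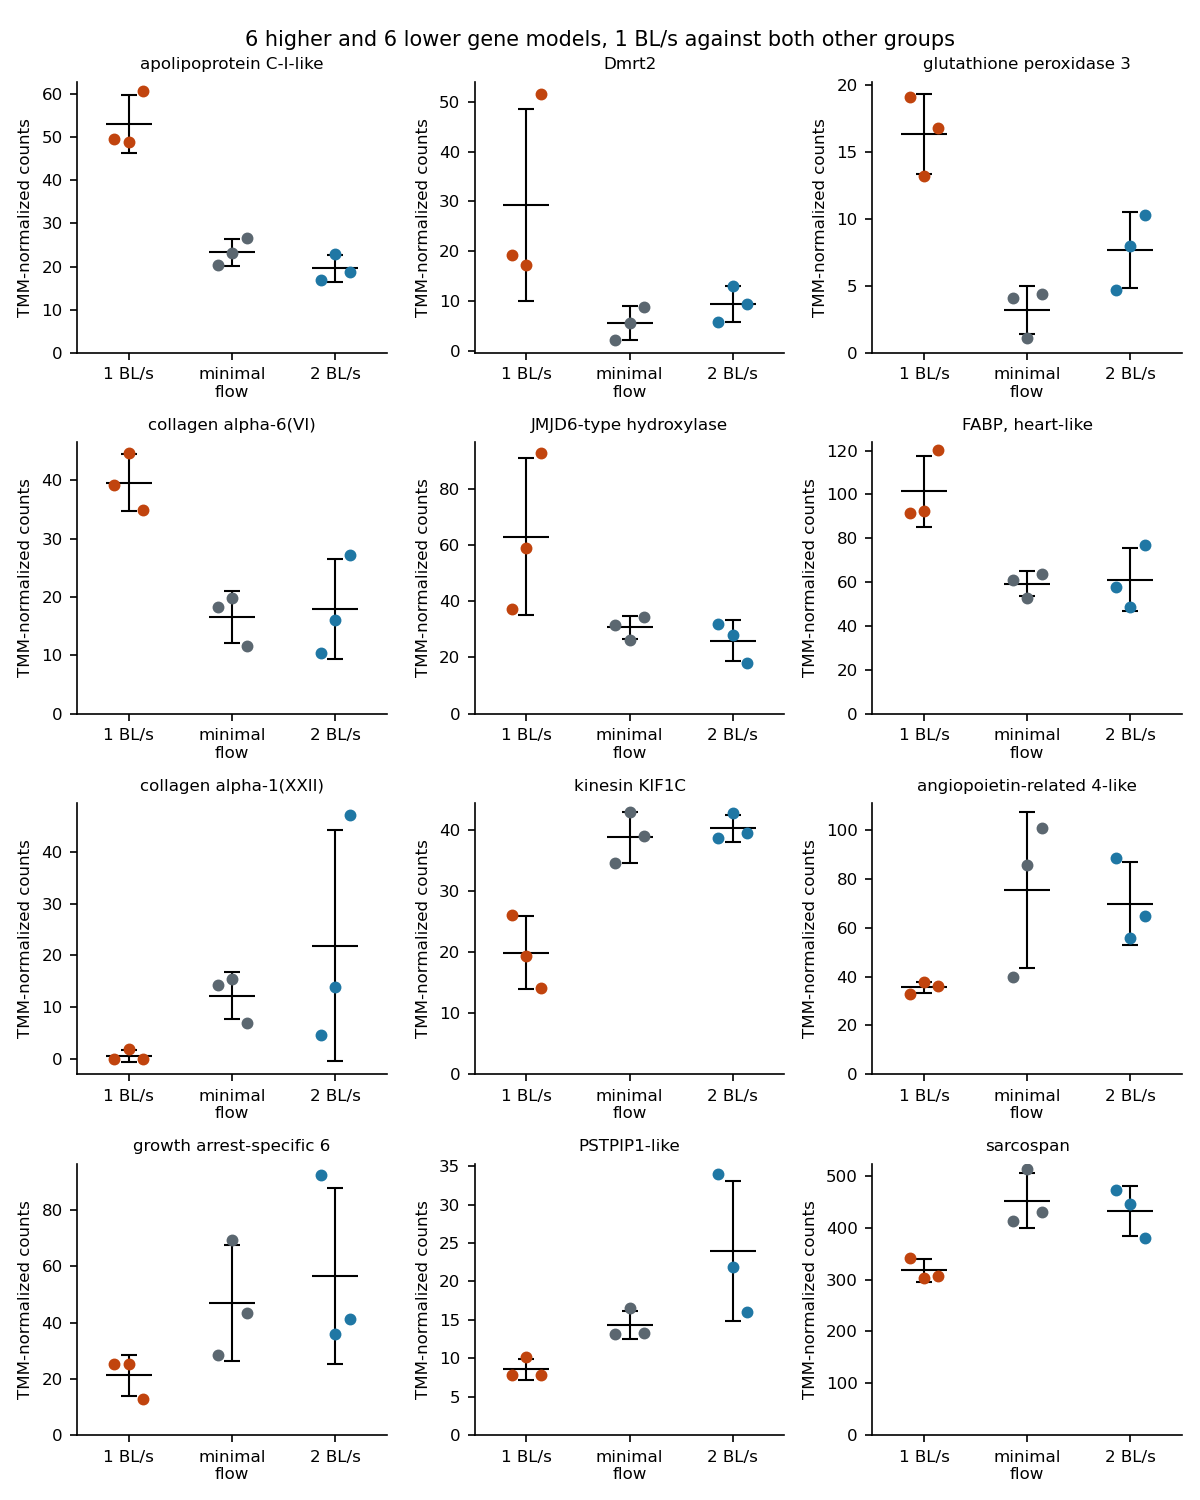
TMM-normalized counts of 6 gene models that were higher and 6 that were lower at 1 BL/s, by group. Points are fish, the long dash is the group mean and the bars are the SD (n = 3). The models were chosen among those in which the 3 fish at 1 BL/s lie outside the range of the 6 other fish. For apolipoprotein C-I-like these were 48.8 to 60.7 at 1 BL/s against 17.0 to 26.6.

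At the lower end, the collagen alpha-1(XXII) chain (Sa_14971.3.1), in mammals and zebrafish a collagen of the myotendinous junction, was nearly missing at 1 BL/s. It had 0, 2.03 and 0 normalized counts in the fish at 1 BL/s, 14.2, 15.4 and 7.08 in the controls and 4.72, 14 and 47 at 2 BL/s. The 2 raw counts at 1 BL/s against 105 in the other 6 fish gave a ratio of 0.0403 (exact 95% interval of 0.00482 to 0.149, which covers counting error only). Fish 3 at 2 BL/s, with 47 normalized counts, weighed most in this pooled ratio. The same fish stood out in matrix genes and in cartilage, bone and tendon markers, as given below. The collagen alpha-1(XVIII) chain-like model, a basement membrane collagen, was also lower (log2 fold change -1.47 ± 0.58 SE), but its fish overlapped and the call was lost without fish 2 (-1.43) or fish 3 (-1.32) at 1 BL/s or fish 2 at 2 BL/s (-1.15).

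Kinesin KIF1C (Sa_39914.1.1), a motor that moves vesicles along microtubules, had 26.1, 19.3 and 14.2 normalized counts at 1 BL/s, 34.6, 42.9 and 39 in the controls and 38.7, 42.9 and 39.5 at 2 BL/s. It was 0.51-fold (log2 fold change -0.97 ± 0.26 SE), and the controls and the fish at 2 BL/s had closely similar values. A PSTPIP1-like model (Sa_48750.1.1), an adaptor of the actin cytoskeleton in blood cells of mammals, had 7.83, 10.2 and 7.75 normalized counts at 1 BL/s, 13.2, 16.5 and 13.3 in the controls and 34, 21.9 and 16.0 at 2 BL/s (log2 fold change -1.10 ± 0.36 SE). These 2 genes, collagen XXII and angiopoietin-related 4-like kept their calls in every alternative that gave them a value. Those alternatives again reused the fish by which the genes had been chosen.

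Growth arrest-specific 6 (Sa_9156.3.1), the ligand of the TAM receptor kinases, had 25.2, 25.4 and 12.9 normalized counts at 1 BL/s, 28.5, 69.3 and 43.4 in the controls and 92.5, 35.9 and 41.3 at 2 BL/s (log2 fold change -1.26 ± 0.41 SE). Multidrug resistance-associated protein 4 (Sa_6948.1.1), an efflux pump for cyclic nucleotides and prostanoids, had 17.4, 18.3 and 14.2 normalized counts at 1 BL/s, 30.5, 84.7 and 39 in the controls and 24.5, 32.9 and 22.5 at 2 BL/s (log2 fold change -1.14 ± 0.36 SE). Its log2 fold change was -1.61 vs. the controls and -0.67 vs. 2 BL/s. Nucleolysin TIAR, an RNA-binding protein of stress granules, had 3.88 to 9.57 normalized counts at 1 BL/s, 13.2 to 19.5 in the controls and 16.0 to 19.9 at 2 BL/s (log2 fold change -1.09 ± 0.38 SE). These 3 lost their calls only when the long against short index entered the fit as a covariate, and phospholipid phosphatase 6 (-1.58 ± 0.53 SE) only with the sample weights of voom.

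The last 4 of the 12 leading lower genes lost their calls without 1 fish and in other alternatives. Sarcospan (Sa_17872.4.1), a membrane protein of the dystrophin complex and the most abundant of them, had 342, 303 and 307 normalized counts at 1 BL/s, 414, 513 and 429 in the controls and 472, 446 and 380 at 2 BL/s. It was 0.718-fold (log2 fold change -0.48 ± 0.17 SE), and the call was lost without fish 2 at 1 BL/s (-0.45) and without the low-count filter. The myosin-9-like (-2.10 ± 0.71 SE), the zinc finger CCCH domain-containing 13-like (-1.08 ± 0.37 SE) and the rho guanine nucleotide exchange factor 40-like models (-1.59 ± 0.56 SE) lost their calls without fish 1 at 1 BL/s, at -1.78, -0.91 and -1.19. All 3 calls were also lost with the covariate, and that of the myosin-9-like model with voom weights.

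The lists of genes were read against the share of all gene models called, 2.99% higher and 2.17% lower, and against the median log2 fold change of -0.01 over all gene models. Of all 4241 gene models, 2077 had a log2 fold change above 0 and 2164 below. Without fish 3 at 1 BL/s, 4631 gene models were tested, of which 66 were called higher and 71 lower, and list calls without that fish are to be read against these. In the plot of the gene lists the largest share of higher calls was in the respiratory chain and ATP synthase, and the lists with only lower calls were the circadian clock, the blood vessel and the sodium channel genes. For calcium handling and the triad (21 tested), the citric acid cycle (14), heat shock proteins and other chaperones (40), the proteasome with atrogenes (27) and the glucocorticoid and stress response (19), no member was called in either direction by edgeR, with median log2 fold changes of 0.10, 0.10, 0.10 and 0.13 in the first 4 and of less than 0.01 in size in the last. Without fish 3 at 1 BL/s the 5 medians were 0.02, 0.04, -0.04, 0.00 and -0.07, again with no call. DESeq2 called 1 proteasome or atrogene model and 1 stress response model lower.

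**Figure D4:**
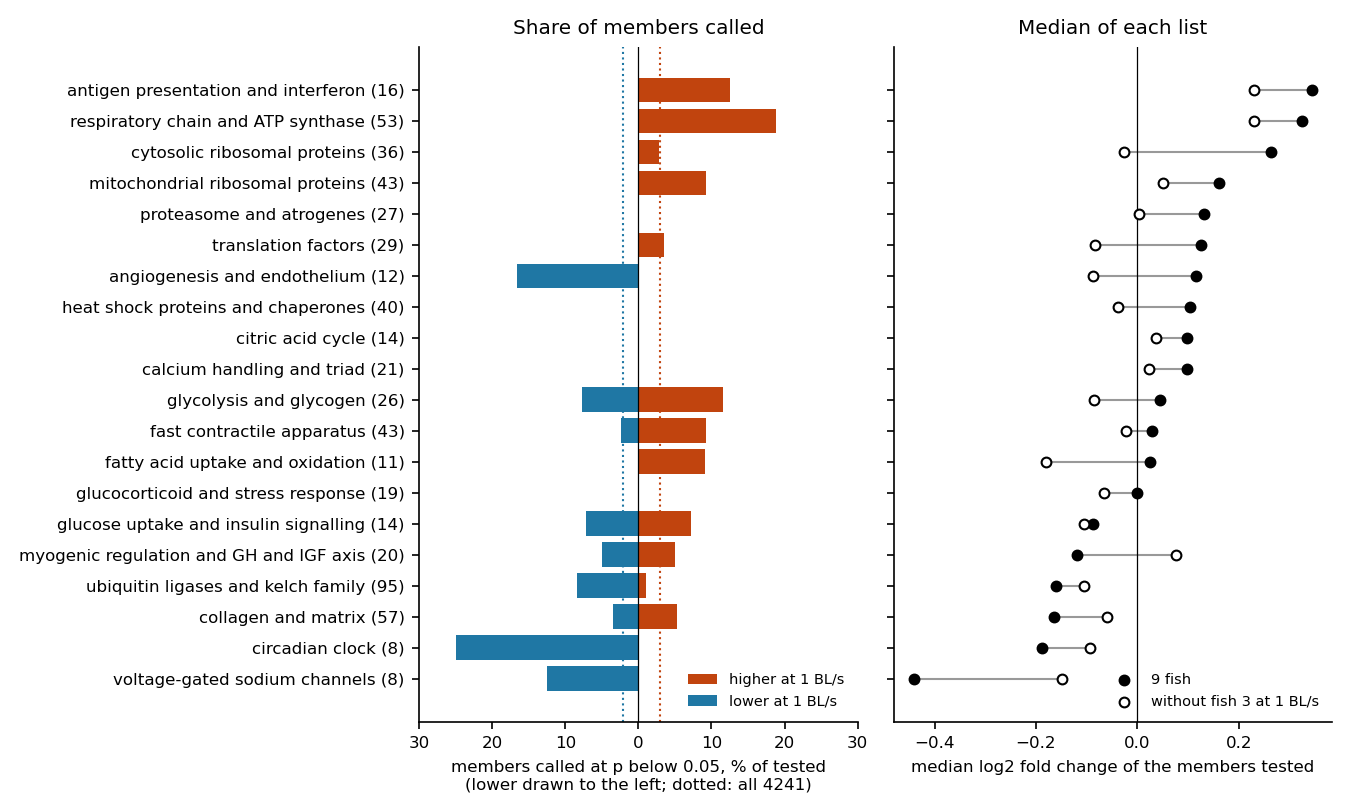
Left, the share of tested members of each list called higher (red, to the right) or lower (blue, to the left) at 1 BL/s, in %, with the share of all 4241 gene models as dotted lines and the number of tested members in brackets. Right, the median log2 fold change of each list with all 9 fish (filled) and without fish 3 at 1 BL/s (open). The respiratory chain has a median of 0.32 with and 0.23 without fish 3, and the cytosolic ribosomal proteins 0.26 and -0.03.

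Transcripts of the respiratory chain, which makes most ATP in aerobic muscle, leaned to higher values at 1 BL/s. Of 53 tested gene models 10 were called higher and 0 lower, 50 had a log2 fold change above 0, and the median was 0.32. The 3 fish at 1 BL/s lay above the other 6 in 10 of the 53, and the summed level of all 69 models of the list with a count was 20667, 22589 and 26449 normalized counts at 1 BL/s, 17860, 17629 and 19947 in the controls and 17211, 20964 and 18531 at 2 BL/s. Fish 1 at 1 BL/s was thus below fish 2 at 2 BL/s. Without fish 3 the median was 0.23 and 46 gene models were above 0, but 1 was called.

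By complex, 4 of 25 subunits of complex I, 0 of 3 of complex II, 1 of 4 of complex III, 3 of 12 of complex IV and 2 of 9 of ATP synthase were called higher. All 25 models of complex I (the NADH dehydrogenase that feeds electrons to the chain) and all 12 of complex IV (the cytochrome c oxidase that passes them to oxygen) had a log2 fold change above 0, with medians of 0.33 and 0.44. Without fish 3 these medians were 0.23 and 0.17. The gene model with the smallest p was a cytochrome c oxidase subunit (Sa_9678.3.1), with 437, 446 and 594 normalized counts at 1 BL/s, 348, 317 and 372 in the controls and 271, 355 and 348 at 2 BL/s. It was 1.47-fold higher (log2 fold change 0.56 ± 0.18 SE) and stayed called whichever fish was left out.

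The second was subunit 12 of the NADH dehydrogenase 1 alpha subcomplex (Sa_6134.1.1), with 165, 163 and 230 normalized counts at 1 BL/s, 130, 103 and 141 in the controls and 113, 138 and 128 at 2 BL/s. Its log2 fold change was 0.56 ± 0.20 SE and 0.38 without fish 3, where the call was lost. A second cytochrome c oxidase subunit (Sa_39333.18.1) had 399, 375 and 598 normalized counts at 1 BL/s, 253, 316 and 340 in the controls and 270, 338 and 334 at 2 BL/s, and its log2 fold change of 0.57 ± 0.20 SE was 0.32 without fish 3 and not called. The other 7 called models stayed called in 1 to 6 of the 9 fits without a fish, and all 7 lost the call without fish 3, as well as without at least 2 other fish, with log2 fold changes between 0.21 and 0.72 over those fits. Most of these subunits are short transcripts, and the list of short transcripts as a whole had 9 of 89 called higher and a median of 0.30, which was 0.07 without fish 3. With the long against short index as a covariate the median of the respiratory chain was 0.20. The short list, and with it the index, holds small respiratory chain subunits, so neither is independent of the respiratory chain. The part of RNA quality in the difference was not tested.

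**Figure D5:**
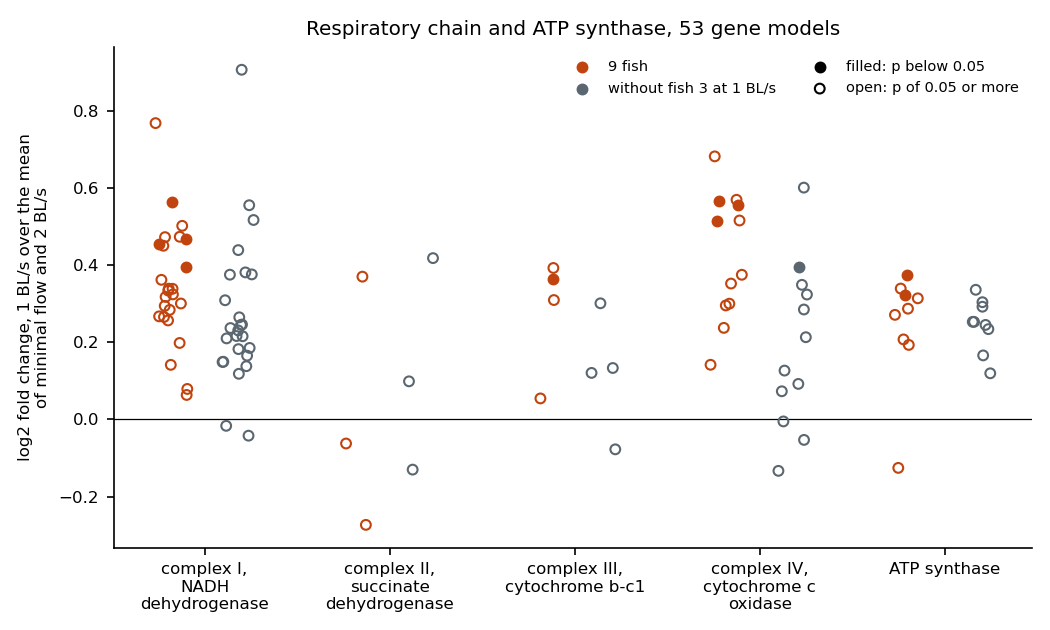
Log2 fold change, 1 BL/s over the mean of minimal flow and 2 BL/s, of 53 models for subunits of the oxidative phosphorylation complexes, with all 9 fish (red) and without fish 3 at 1 BL/s (grey). Filled points had a p under 0.05. With 9 fish 50 of 53 models lie above 0 and 10 are filled, and without fish 3 46 lie above 0 and 1 is filled.

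Of 43 mitochondrial ribosomal proteins, which translate the subunits encoded in mitochondria, 4 were called higher and 0 lower, with a median of 0.16. Without fish 3 at 1 BL/s 2 were called higher and 1 lower, with a median of 0.05. The median was -0.0005 with the long against short index as a covariate. A 39S subunit (Sa_26026.5.1) led them, with 36.6, 66.1 and 42.6 normalized counts at 1 BL/s, 24.4, 35.2 and 33.6 in the controls and 28.3, 31.9 and 27.2 at 2 BL/s (log2 fold change 0.68 ± 0.26 SE), and its call was lost without fish 2 at 1 BL/s (0.39). Of 36 cytosolic ribosomal proteins 1 was called, 40S ribosomal protein S29 (0.38 ± 0.17 SE). All 36 had a log2 fold change above 0 with a median of 0.26, but without fish 3 the median was -0.03 and S29 was at 0.21 and not called. Leaving out controls 2 or 3 (0.35 and 0.39), fish 1 of the 1 BL/s group (0.44) or any of the 2 BL/s group (0.37, 0.41 and 0.39) ended its call too. Of 29 translation factors, elongation factor 1-alpha (Sa_23853.11.8) was called higher (0.48 ± 0.20 SE), with 260, 287 and 367 normalized counts at 1 BL/s, 223, 248 and 189 in the controls and 196, 182 and 271 at 2 BL/s. The call ended when control 3 (0.43), the 1 BL/s fish 2 (0.52) or 3 (0.32) or the 2 BL/s fish 1 (0.45) or 2 (0.43) was left out.

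In the control of fuel use, 14 gene models of glucose uptake and insulin signalling were tested, of which 1 was called higher and 1 lower. A gamma-1-like subunit of AMP-activated kinase (Sa_29221.2.1), the nucleotide sensor of the main energy switch of the cell, had 24.4, 55.9 and 63.3 normalized counts at 1 BL/s, 22.4, 18.7 and 14.2 in the controls and 12.3, 13 and 36.6 at 2 BL/s. It was 2.43-fold higher (log2 fold change 1.28 ± 0.40 SE) and stayed called in every alternative, although fish 1 at 1 BL/s was below fish 3 at 2 BL/s. A second, more abundant gene model with the same leading number in its identifier (Sa_29221.2.3) had 163 to 232 normalized counts at 1 BL/s. It had 202 to 229 in the controls and 233 to 328 at 2 BL/s, with a log2 fold change of -0.40, not called. Reads shared between these 2 models may have been left out or placed in 1 of them, since their handling in the counting was not given.

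Among 26 gene models whose descriptions matched the list of glycolysis and glycogen 3 were called higher and 2 lower, with a median of 0.04. DESeq2 called 3 higher and 0 lower, and without fish 3 at 1 BL/s none was called by edgeR and the median was -0.09. Of the higher ones, aldolase A (Sa_16924.2.1, 1.18 ± 0.37 SE) had 78.3, 68.1 and 172 normalized counts at 1 BL/s, 57.9, 44.0 and 37.2 in the controls and 25.5, 35.9 and 78.9 at 2 BL/s, and lost its call without fish 3 at 1 BL/s (0.65). Phosphoglycerate mutase 1 (1.31 ± 0.50 SE) did the same (0.66), and phosphoglucomutase 5 (0.68 ± 0.24 SE) lost its call without fish 2 (0.50) or 3 (0.59) at 1 BL/s. Phosphoglucomutase 5 was listed by its name alone, and a part in glycolysis or glycogen use was not checked. The gamma catalytic subunit of muscle phosphorylase b kinase (Sa_21496.6.1), which turns on glycogen breakdown, was lower (-0.36 ± 0.16 SE), with 4324, 3934 and 3603 normalized counts at 1 BL/s, 4051, 5600 and 5543 in the controls and 5515, 4745 and 4958 at 2 BL/s. It stayed called in 2 of the 9 fits without a fish, with log2 fold changes between -0.43 and -0.30, and a hexokinase-1-like model (-0.74 ± 0.33 SE) in 3 of 9, between -1.16 and -0.47. The most abundant glycolytic models, glyceraldehyde-3-phosphate dehydrogenase (0.04 ± 0.14 SE) and the lactate dehydrogenase A chain (-0.05 ± 0.15 SE), were not called.

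The fast contractile apparatus (43 tested, 4 higher, 1 lower, median 0.03) held 2 myosin heavy chain models with higher counts at 1 BL/s. A partial myosin heavy chain (Sa_35509.2.1) had 630, 253 and 302 normalized counts at 1 BL/s, 146, 163 and 209 in the controls and 108, 282 and 169 at 2 BL/s (1.14 ± 0.33 SE), and the call was lost without fish 1 at 1 BL/s (0.63). A fast skeletal myosin heavy chain-like model (Sa_24470.1.1) had 1073, 425 and 1195 normalized counts at 1 BL/s, 1591, 201 and 382 in the controls and 191, 181 and 93.9 at 2 BL/s. Its log2 fold change of 1.42 ± 0.53 SE was 0.31 vs. the controls and 2.53 vs. 2 BL/s, and the call was lost without fish 1 (1.27) or 3 (1.15) at 1 BL/s, with robust edgeR and with the covariate; without control fish 1 it was 2.07 and called. The model described as alpha cardiac (0.38 ± 0.16 SE), tropomodulin-4 (0.40 ± 0.18 SE) and titin (-0.35 ± 0.16 SE) were called with all 9 fish and in 3 or 4 of the 9 fits without a fish, and without fish 3 at 1 BL/s they were at 0.25, 0.19 and -0.20 and not called. They were not called with DESeq2 or with the long against short covariate either, and DESeq2 called 2 members of the list higher and 0 lower. Titin is itself one of the long transcripts of that index, so for titin the fit with the covariate is not independent. The alpha cardiac model had 773164, 756010 and 971480 normalized counts at 1 BL/s, 924747, 643434 and 692582 in the controls and 630584, 470554 and 537573 at 2 BL/s. Its fish at 1 BL/s thus overlapped the controls, and its log2 fold change of 2 BL/s over minimal flow was -0.46. Myosin heavy chains are a multigene family, and reads shared between its members may have been left out or misplaced in the counting.

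In the regulation of growth, myostatin (Sa_10066.5.1), the secreted inhibitor of muscle growth, was on average lower at 1 BL/s than in either other group. It had 183, 133 and 252 normalized counts at 1 BL/s, 338, 371 and 377 in the controls and 662, 302 and 194 at 2 BL/s. All 3 fish at 1 BL/s were below the 3 controls, while fish 3 at 2 BL/s, with 194, lay within the range of the 1 BL/s group. The gene was 0.506-fold at 1 BL/s (log2 fold change -0.98 ± 0.35 SE), by -0.94 vs. the controls and -1.03 vs. 2 BL/s, and the call was lost in 1 of 19 alternatives, without fish 2 at 1 BL/s (-0.79). Insulin-like growth factor-binding protein 5 (Sa_31123.3.1), which binds the growth factors of muscle, had 20.9, 27.4 and 32.3 normalized counts at 1 BL/s, 16.3, 17.6 and 7.97 in the controls and 17.9, 6.98 and 17.8 at 2 BL/s. It was higher with no overlap (0.92 ± 0.37 SE), and the call ended when control 3 (0.77) or the 1 BL/s fish 2 (0.90) or 3 (0.77) was left out. The 18 other tested members of the myogenic, growth hormone and IGF list were not called, and the median of the list was -0.12 (0.08 without fish 3).

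Genes of protein ubiquitination leaned to lower values. Of 95 ubiquitin ligase and kelch family models 1 was called higher and 8 lower, with a median of -0.16. Of the 95, 63 were below 0, against 2164 of all 4241 gene models. Without fish 3 the counts were 0 higher and 6 lower with a median of -0.11, against 66 and 71 of 4631 over all. MARCH7 (Sa_4956.1.1), a ubiquitin ligase, had 52.2, 27.4 and 36.2 normalized counts at 1 BL/s, 43.7, 95.7 and 83.2 in the controls and 68.9, 89.7 and 72.3 at 2 BL/s (-0.96 ± 0.30 SE). ASB10 (Sa_9588.3.1), a substrate adaptor of cullin ligases, had 10.4, 11.2 and 2.58 normalized counts at 1 BL/s, 22.4, 40.7 and 23.9 in the controls and 10.4, 35.9 and 19.7 at 2 BL/s (-1.58 ± 0.50 SE). Both stayed called whichever fish was left out, with overlapping fish.

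The kelch proteins, adaptors of cullin-3 ligases of which several are muscle specific, made up 4 of the 8 lower ones. This subset was chosen after the values had been seen, and 4 of its 21 tested members were called lower and 0 higher, with a median of -0.25. Kelch 31 (Sa_23853.7.1), the most abundant of the 4, had 568, 788 and 298 normalized counts at 1 BL/s, 1119, 1222 and 1019 in the controls and 738, 1101 and 813 at 2 BL/s (-0.85 ± 0.27 SE). Kelch repeat and BTB domain-containing 12-like (Sa_490.2.1) had 23.5, 33.5 and 32.3 normalized counts at 1 BL/s, 28.5, 60.5 and 76.2 in the controls and 79.3, 44.8 and 85.5 at 2 BL/s (-1.06 ± 0.35 SE). Both stayed called in every alternative. Kelch 24 (-1.07 ± 0.35 SE) lost its call without fish 2 at 1 BL/s (-0.84), and the second kelch repeat and BTB domain-containing 12 model (-0.50 ± 0.21 SE) in 6 of the 9 fits without a fish, with log2 fold changes of -0.65 to -0.38 over all 9.

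The vessel and blood related genes held 2 lower calls of 12, angiopoietin-related 4-like and multimerin-2. Of the 12, 7 had a log2 fold change above 0 and 5 below, with a median of 0.12. Without fish 3 at 1 BL/s the median was -0.09. Multimerin-2 (Sa_44146.1.1), a matrix protein of endothelial cells, had 4.35, 10.2 and 10.3 normalized counts at 1 BL/s, 27.4, 14.3 and 21.3 in the controls and 17.9, 12 and 15 at 2 BL/s. The fish did not overlap (-1.12 ± 0.40 SE), and the call was lost without fish 1 at 1 BL/s (-0.78). Hemoglobin subunit alpha-A had 292, 252 and 935 normalized counts at 1 BL/s, 162, 122 and 226 in the controls and 117, 179 and 358 at 2 BL/s. Its log2 fold change of 1.35 ± 0.43 SE was 0.49 and not called without fish 3 at 1 BL/s. The red blood cell list of 4 gene models held 261 to 951 normalized counts at 1 BL/s, 124 to 231 in the controls and 126 to 362 at 2 BL/s, and the part of blood left in the tissue was not tested.

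Among 8 voltage-gated sodium channel models, which carry the action potential of the fibre, 1 was called lower and all 8 had a log2 fold change below 0. Their median was -0.44, which was -0.15 without fish 3 and -0.06 with the long against short index as a covariate. The alpha B-like subunit of the type 4 muscle channel (Sa_16736.1.1) had 54.8, 39.6 and 19.4 normalized counts at 1 BL/s, 61.0, 92.4 and 100 in the controls and 59.5, 81.7 and 50.7 at 2 BL/s (-0.93 ± 0.33 SE), at -0.64 and not called without fish 3. Of 8 clock genes 4 had a log2 fold change above 0 and 4 below, with a median of -0.19. This median was -0.09 without fish 3 at 1 BL/s and 0.20 with the covariate. Called lower were 2 of the 8, both models of CLOCK, the activator of the circadian loop, with the same leading number in their identifiers. One (Sa_29732.3.1) had 23.5, 21.3 and 6.46 normalized counts at 1 BL/s, 28.5, 27.5 and 46.0 in the controls and 24.5, 33.9 and 31.0 at 2 BL/s (-0.86 ± 0.38 SE). The other (Sa_29732.2.1) had 22.6, 12.2 and 2.58 normalized counts at 1 BL/s, 12.2, 25.3 and 23 in the controls and 34, 39.9 and 32.9 at 2 BL/s (-1.04 ± 0.47 SE). Without fish 3 at 1 BL/s they were at -0.51 and -0.61 and not called. Leaving out several other fish ended these calls too, with log2 fold changes between -1.15 and -0.51 for the first and between -1.78 and -0.61 for the second over the 9 fits.

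In the matrix list (57 tested, 3 higher, 2 lower, median -0.16, which was 0.05 without control fish 2 or with the covariate and -0.06 without fish 3 at 1 BL/s) the higher ones were collagen alpha-6(VI), a laminin beta-1-like chain and scleraxis, the transcription factor of tendon cells. The laminin chain (Sa_50456.1.1) had 23.5, 17.3 and 32.3 normalized counts at 1 BL/s, 4.07, 3.3 and 14.2 in the controls and 10.4, 11 and 20.7 at 2 BL/s (1.24 ± 0.44 SE), and was at 0.99 and not called without fish 3. Scleraxis (Sa_24500.4.1) had 20.02, 35.6 and 32.3 normalized counts at 1 BL/s, 27.4, 20.9 and 21.3 in the controls and 10.4, 16.9 and 9.39 at 2 BL/s. Its log2 fold change of 0.79 ± 0.30 SE was 0.33 vs. the controls and 1.25 vs. 2 BL/s, and the call was lost without fish 2 (0.61) or 3 (0.71) at 1 BL/s or fish 3 at 2 BL/s (0.71). That fish stood out in the summed level of the matrix list, with 31567 normalized counts, against 11863 to 17283 at 1 BL/s, 9963 to 15075 in the controls and 9926 and 11064 in the other two fish at 2 BL/s. Its summed level of cartilage, bone and tendon markers was 7686 normalized counts, against 992 to 1496 at 1 BL/s, 1198 to 1984 in the controls and 1164 and 1278 in the other two fish at 2 BL/s. The part of such tissue in these values was not tested, and without that fish the median of the matrix list was -0.02.

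In the antigen presentation and interferon list 2 of 16 were called higher and 0 lower, with a median of 0.34 (0.23 without fish 3). An MHC class II antigen beta chain (Sa_41427.1.1), which presents antigen on immune cells, had 40.03, 37.6 and 53 normalized counts at 1 BL/s, 25.4, 9.90 and 11.5 in the controls and 31.1, 38.9 and 44.2 at 2 BL/s. Its log2 fold change of 0.83 ± 0.31 SE was 1.47 vs. the controls and 0.19 vs. 2 BL/s, and the call was lost without fish 3 at 1 BL/s (0.67). The interferon-induced helicase (Sa_10002.2.1), a sensor of viral RNA, had 96.6 normalized counts in fish 1 at 1 BL/s and 2.99 to 15.1 in the other 8 fish, and its log2 fold change of 2.23 ± 0.70 SE was 0.16 without fish 1. Of the leukocyte markers 13 were tested and 1 was called, and their summed level was 998 to 1225 normalized counts at 1 BL/s, 620 to 956 in the controls and 652 to 1141 at 2 BL/s. Markers of macrophages had no common order, with 44 raw counts at 1 BL/s, 37 in the controls and 55 at 2 BL/s for macrophage-expressed gene 1. The macrophage colony-stimulating factor 1 receptor had 41 raw counts at 1 BL/s, 59 in the controls and 54 at 2 BL/s. MARCO had 6 raw counts at 1 BL/s, 4 in the controls and 26 at 2 BL/s, all of the 26 in fish 3.

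Among the 10224 gene models with too few counts for the test, 15 had 0 counts in all 3 fish at 1 BL/s and a count in each of the other 6. The largest was KIDINS220 (Sa_7559.3.10), a scaffold of neurotrophin receptors, with 0 counts at 1 BL/s, 11, 7 and 2 raw counts in the controls and 7, 4 and 3 at 2 BL/s. Against a floor of 3 counts over the group it was 5.36-fold lower at 1 BL/s, with no allowance for counting error in the other 6 fish. The next were RIPK2, a kinase of innate immunity with 28 counts in the other 6 fish, PALB2, a DNA repair partner of BRCA2 with 24, and the catalytic subunit of DNA polymerase zeta with 19. These had no test, and no gene model that was tested had 0 counts in all fish at 1 BL/s.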

How the data were processed

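RNA of white muscle of 9 fish was made into stranded mRNA libraries and sequenced in pairs. Per the labels and the study's methods, the authors aligned reads with TopHat2 2.0.13 to a reference assembly of the species at NCBI, given by its identifier, removed secondary alignments with SAMtools 1.2 and counted fragments per predicted gene with HTSeq 0.6.1p1; the strand setting was not given in the sources used here. The deposited counts are raw counts. Reads of overlapping, antisense and near-identical genes may have been left out or placed in the wrong model, and the handling of such reads was not given. The columns with the authors' DESeq means, fold changes and p-values and 2 columns with no sample label were not used.

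The 3 tables were joined by gene model. Counts were TMM-normalized, filtered with filterByExpr (minimum count 10) and fitted over all 9 fish with edgeR 4.0.16 (R 4.3.3) by its quasi-likelihood test, with BH adjustment over 4241 gene models. Each SE given was worked back from this test, as the size of the log2 fold change divided by the square root of its F statistic. It was not estimated separately. The fits were tested on simulated data. Libraries of 3660245 to 5267310 counts limit precision for gene models with few counts. No pair of fish agreed within counting error, the smallest chi-square over its degrees of freedom being 11.3. Values of p measure the spread between fish of 1 tank each.

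Alternatives were size factors of DESeq2 (RLE), TMM without the 10 most abundant gene models, DESeq2 1.42.0, limma 3.58.1 (limma-trend with a prior count of 2, and voom with sample weights), robust edgeR, no filter, a mean count of at least 50, a replicate block, the long against short index as a covariate, and leaving out each fish. Named genes were the 12 with the smallest p in each direction among called gene models without overlap of the fish, up to 4 members per pathway list by p, the 5 most abundant gene models, and filtered models present or absent at 1 BL/s alone. All other named gene models (members of marker lists, further called members of a pathway list, BIRC6, C1q) were chosen after their values were seen. List members are the descriptions that match fixed words. The members and lists were chosen with earlier results of these data known. Gene names come from the descriptions in the tables, since none of the identifiers matched the reference gene table.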

Additional observations from a re-analysis of the deposited data

Results flagged for a closer look

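The 4 leading gene models below the low-count filter had a count in each fish at 1 BL/s and 0 in the other 6, out of 9 with this pattern among 10224 gene models that were not tested. They were singled out for this pattern, which lies outside the tested data. Carboxypeptidase N subunit 2-like (Sa_17989.3.1) had 2, 3 and 1 raw counts at 1 BL/s, 6 in all. Coiled-coil domain-containing 171 (Sa_25201.3.1) had 1, 2 and 3, also 6 in all, and fibroblast growth factor 17 (Sa_8095.2.1) 4, 1 and 1, again 6. Against a floor of 3 counts over the other 6 fish each of these was 4.23-fold higher at 1 BL/s. The floor makes no allowance for counting error in the 6 counts at 1 BL/s, so the fold is not a lower bound. Glucose-6-phosphatase (Sa_18551.1.1), the enzyme that releases free glucose in liver, had 2, 1 and 2 raw counts, 5 in all, 3.53-fold higher against the same floor. No difference was tested.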

How the results depend on the processing

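The 219 called gene models became 697 with no low-count filter (379 higher, 318 lower), 90 with a mean count of at least 50 (45 and 45) and 122 with the long against short index as a covariate (69 and 53), and limma-trend called 154 lower. BH-adjusted calls were 51 with no filter, 37 higher and 14 lower at 1 BL/s, and 0 in all other alternatives. Of the 51, 36 passed the filter, and 25 had most of their counts in 1 fish. Leaving out 1 fish gave 137 (without fish 3 at 1 BL/s) to 378 (without fish 1 at 1 BL/s) calls, 66 to 169 higher and 71 to 209 lower, with 0 past BH. The gene models outside the range of the other fish were then 94 to 229 above and 66 to 241 below, where fewer fish separate more easily, and the difference in the long against short index was -1.05 to -0.15. The higher share of calls was 58.0% with edgeR, 48.8% with DESeq2 and 41.4% with limma-trend. The sample numbers were not taken to pair the fish, since nothing in the sources used says that they do. A correlation over 0.1 was found in 4 of 9 pairs with the same number (-0.03 to 0.18). It was found in 1 of 18 pairs with other numbers (-0.20 to 0.13), and what the same-number pairs share was not tested. With the number as a replicate block 246 gene models were called, 125 higher and 121 lower, 175 of them among the 219. The 88 named called gene models had 1617 values under alternatives, of which 330 lost the call and 0 changed direction. The alternatives reused the fish in which these models were called, so the lack of a change of direction was largely fixed in advance. For the same reason the calls that were kept are not separate support. Of 644 list medians 31 moved by more than their spread. The causes were not tested. At the depth of these libraries 10224 gene models were left untested.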

Other observations

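Other gene groups stood out once the values had been seen, so their counts carry no test. All 3 tested models of complement C1q, the recognition protein of the classical pathway that macrophages make, were called higher at 1 BL/s. The subunit B-like model (Sa_41230.2.1) had 16.5, 14.2 and 16.8 normalized counts at 1 BL/s, 7.12, 5.50 and 10.6 in the controls and 3.78, 8.97 and 7.52 at 2 BL/s (log2 fold change 1.11 ± 0.39 SE) and stayed called in every alternative. The subunit C-like models (0.77 ± 0.26 SE and 1.04 ± 0.38 SE) were at 0.47 and 0.55 and not called without fish 3 at 1 BL/s. Of 5 tested subunits of the Arp2/3 complex, which branches actin filaments, 3 were called higher, and 0 were called without fish 3.

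BIRC6 (Sa_22569.1.1), a very large inhibitor of apoptosis, had 3.48, 7.12 and 2.58 normalized counts at 1 BL/s, 21.3, 25.3 and 13.3 in the controls and 5.66, 9.97 and 16.0 at 2 BL/s. It was lower at 1 BL/s in every alternative (log2 fold change -1.67 ± 0.51 SE), with an overlap between fish 2 at 1 BL/s and fish 1 at 2 BL/s.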
